A study of Petunia x hybrida with 10 samples.

Results

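Some stretches of the petunia genome held many separate m1A regions within a few kilobases, and these dense loci are described here. The 6 m1A peak lists were pooled, peaks that shared 1 bp or more were merged into regions, and regions on a scaffold separated by gaps of 2000 bp or less were chained into loci. Loci with 8 or more regions were kept. They numbered 266 of 17059 loci (1.56%) and held 2522 of 36717 regions (6.87%) and 4093 of 56524 m1A peaks. The loci were chosen by the m1A peak positions of all 6 lists, so their number, length, spacing and list make-up are given as a description without a test.

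Petals (corolla) of petunia, Petunia x hybrida cultivar Mitchell, were kept for 16 h in air or for 16 h with ethylene at 2 µl/l. RNA was fragmented and pulled down with an antibody, and the bound fragments were sequenced. There were 3 air and 3 ethylene m1A libraries, and 2 air and 2 ethylene libraries whose titles name m6A but whose protocol names the same anti-m1A antibody, so "m6A-titled" refers to the title alone. The m1A lists held 1013 to 17573 peaks and the m6A-titled lists 1451 to 1704. Ethylene list 2, with 1013 peaks, was by far the shortest m1A list. Depth was unknown for each library, no label says that libraries came from separate plants, and the spread behind each p-value, that between libraries, may thus be technical.

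N1-methyladenosine (m1A) carries a methyl group on the edge of adenine that pairs with other bases. It is a long-known mark of transfer and ribosomal RNA and has also been mapped in messenger RNA by antibody pull-down. N6-methyladenosine (m6A) is the most common internal mark of plant messenger RNA. Ethylene is the gas hormone that hastens wilting of the petunia corolla after pollination. A pull-down peak is a stretch where the bound fragments pile up. In a spliced messenger RNA such peaks can lie only on exons when placed on the genome, with introns as gaps between them. No gene annotation was used here, and a dense locus is not equated with a gene.

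Loci became rarer steadily with the number of regions they held, with no separate group of very dense loci. There were 8305 loci of 1 region, 1109 of 4 and 212 of 7, which is just outside the rule. Just inside it were 110 loci of 8, followed by 64 of 9 and 31 of 10. Loci of 16, 17 and 18 regions occurred once each. The loci of 7 regions had a median length of 5543 bp and a median of 4 lists, and those of 8 regions a median length of 6382 bp and a median of 5 lists.

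**Figure D1:**
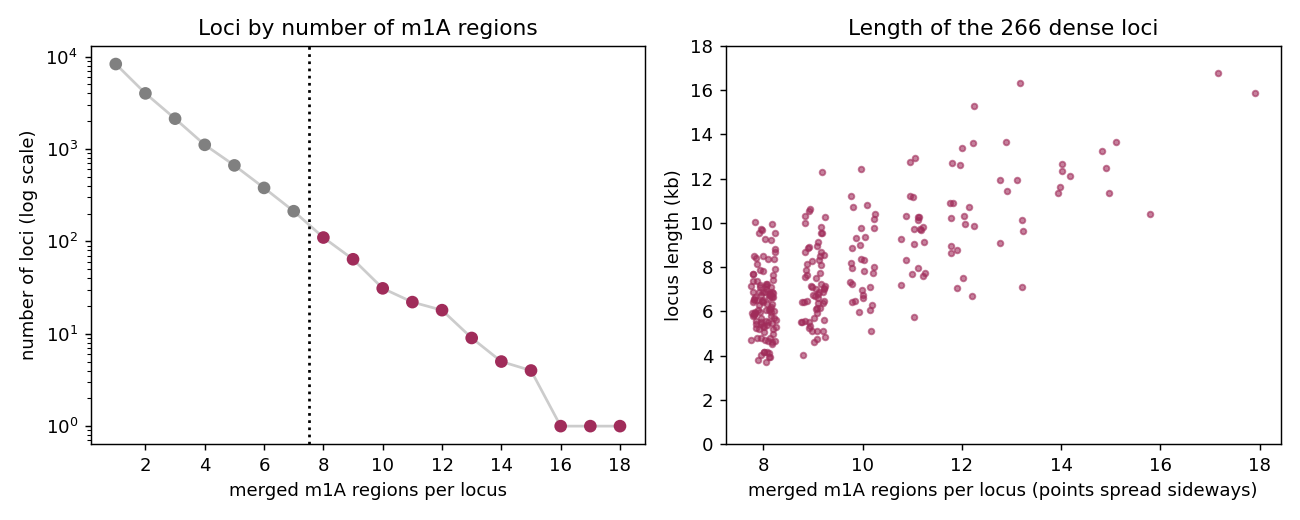
The left panel plots the number of loci (log scale) against the number of merged m1A regions in the locus, with the 8-region limit as a dotted line and dense loci in red. The right panel plots the length in kb of each of the 266 dense loci against its number of regions. The counts fall without a break from 8305 loci of 1 region to single loci of 16, 17 and 18, and lengths reach 16775 bp.

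A typical dense locus ran over several kilobases and was mostly uncovered. The median length was 7181.5 bp, with quartiles of 6058 and 9344.5 bp and extremes of 3706 and 16775 bp. The median number of regions was 9. Regions covered a median of 19.95% of the locus, with extremes of 8.13 and 67.6%. Packing was close to that of shorter loci, with a median of 1.23 regions per kb in dense loci and 1.29 in the 2364 loci of 4 to 7 regions. A locus has fewer gaps than regions, which raises regions per kb in short loci. The median gap within a locus was slightly smaller in dense loci, 615 against 674 bp. The dense loci thus differed from the shorter ones mainly in how far the chain ran.

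The gaps were of intermediate size. Over 2256 gaps between neighbouring regions the median was 631 bp, with quartiles of 289.8 and 1061 bp. The most frequent class, from 500 to 1000 bp, held 728 gaps (32.3%). Gaps under 100 bp numbered 177 (7.85%) and those of 1500 bp or more 216 (9.57%). In loci of 4 to 7 regions the median gap was 665 bp, and the share in these classes was 31.02%, 6.54% and 11.7%. Within a single list the peaks of a dense locus lay farther apart, with a median gap of 1186 to 1474.5 bp among the 6 lists. These gaps span regions that the list lacks and are not limited to 2000 bp, so wider gaps follow from the pooling.

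Regions in dense loci were narrow. Their median width was 125 bp, with quartiles of 76 and 217 bp, against 148 bp for the 34195 regions elsewhere and 127 bp for regions in loci of 4 to 7. Width grew with the number of lists, which merging alone favours. The median was 100 bp for the 1529 regions of 1 list, 153 bp for the 624 of 2 lists, 214.5 bp for the 238 of 3 and 339 bp for the 42 of 5. Regions at an end of a dense locus were wider than inner ones, with medians of 171.5 bp (532 regions) and 118 bp (1990 regions). The widest region lay at an end in 107 of the 266 loci (40.2%), while end regions made up 21.1% of all regions. The same held in loci of 4 to 7 regions, with medians of 144 and 117 bp.

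Peaks were narrower in dense loci within every list before any merging. The median peak width in dense loci and elsewhere was 138 and 161 bp in air list 1, 138 and 160 bp in air list 2, and 116.5 and 164 bp in air list 3. In ethylene list 1 it was 120 and 160 bp, in list 2 110 and 149.5 bp, and in list 3 132 and 165 bp. The loci of 4 to 7 regions had median peak widths of 115 to 138 bp over the 6 lists, close to those of the dense loci. The narrower peaks were thus not particular to loci of 8 or more regions.

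Peaks in dense loci also had the most common score less often. The score is the authors' own value for a peak within its list, and 3100 was its most common value. Higher scores also occurred, such as 3148 on Peaxi162Scf00652, and only scores of exactly 3100 were counted. In air lists 1, 2 and 3, 27.00, 44.5 and 64.01% of the peaks in dense loci had a score of 3100, against 40.2, 54.4 and 67.6% of the peaks elsewhere. In ethylene lists 1, 2 and 3 the shares were 34.96, 67.5 and 50.3% in dense loci and 42.4, 70.9 and 55.5% elsewhere. The share was lower in dense loci in all 6 lists, by the most in air list 1. In loci of 4 to 7 regions it was 33.9, 49.8 and 64.5% in the air lists and 38.1, 75.8 and 51.4% in the ethylene lists, so it lay below the share outside dense loci there as well in every list but ethylene list 2. The scale of the score is not given, and no share is compared between lists.

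Of the 266 dense loci, 142 had no other dense locus on their scaffold. Scaffold length was not taken into account. They lay on 190 of the 1240 scaffolds with m1A loci, and 142 of these scaffolds held 1 dense locus, 30 held 2 and 18 held 3 or more. Peaxi162Scf00016 held 8, the most, followed by Peaxi162Scf00038 with 6 and Peaxi162Scf00047 with 5. Of 76 pairs of consecutive dense loci on a scaffold, 9 were within 50000 bp of each other and 1 within 5000 bp. Another m1A locus of any size lay within 5000 bp of 123 dense loci (46.2%), beyond the 2000 bp at which a locus ended. The same share is not given for other loci.

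Nearly every dense locus drew on lists of both treatments. All 6 lists had peaks in 45 loci (16.9%), 5 lists in 136 (51.1%), 4 lists in 70 (26.3%) and 3 lists in 15. The most frequent make-up was 3 air and 2 ethylene lists, in 132 loci (49.6%), followed by 45 loci each with 3 air and 1 ethylene list and with all 6. No dense locus lacked air peaks, and 4 lacked ethylene peaks. Loci of 4 to 7 regions had fewer chances to draw on many lists, and 4.86% of them had all 6. Most of these shorter loci also drew on both treatments. Of them, 0.804, 8.76 and 5.84% had peaks of 1, 2 and 3 air lists and none of ethylene. Those without air peaks were 0.127% or less for each number of ethylene lists. Drawing on both treatments was thus not particular to dense loci.

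The lists entered unevenly. Air list 2 had peaks in all 266 loci and air list 1 in 263, while air list 3 had peaks in 229. Ethylene lists 1 and 3 had peaks in 223 and 237 loci, and ethylene list 2 in 57 (21.4%). A dense locus held a median of 4 regions of air list 1, 4 of air list 2, 2 of each of air list 3 and ethylene lists 1 and 3, and 0 of ethylene list 2. The 2 longest lists, of 15593 and 17573 peaks, entered the most loci and the shortest, of 1013, the fewest, although air list 3 (6760 peaks) entered more than the longer ethylene list 1 (7526 peaks). List length and treatment move together here, and a difference between treatments cannot be told apart from list length.

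**Figure D2:**
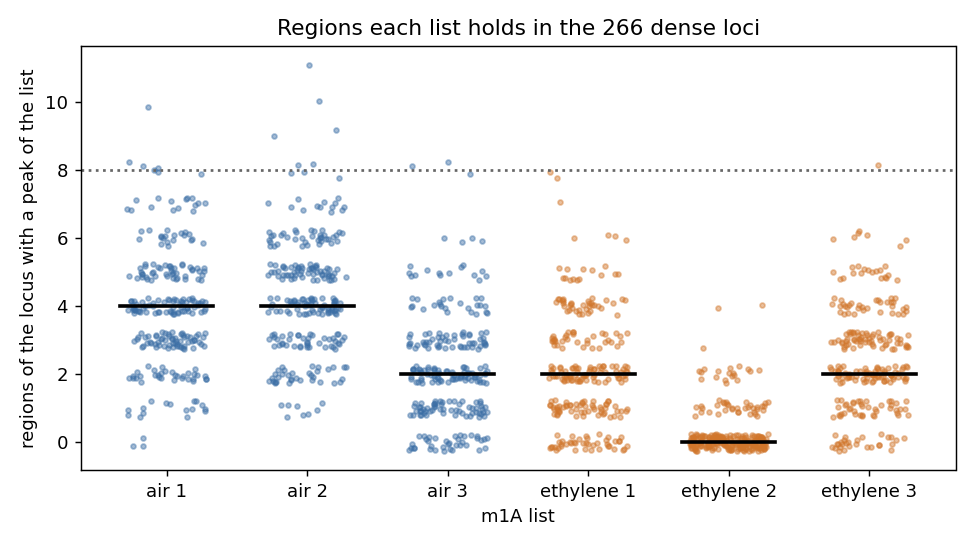
Each point is 1 of the 266 dense loci, placed by the number of its regions that hold a peak of the m1A list on the horizontal axis (points are spread sideways and slightly up and down), and black bars are medians. The dotted line marks 8 regions, which few loci reach in any single list, and the medians run from 4 in air lists 1 and 2 to 0 in ethylene list 2.

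The dense loci were patchworks of several lists. No list had a peak in every region of any of the 266 loci. The list with the most regions of a locus held a median of 54.5% of them, with extremes of 33.3 and 88.9%. Only 22 loci (8.27%) had 8 or more regions in some single list, namely up to 10 in air list 1, 11 in air list 2 and 8 in air list 3 and in ethylene lists 1 and 3. Among 2256 pairs of neighbouring regions, 1139 (50.5%) had no list in common, against 47.4% of the 9150 pairs in loci of 4 to 7 regions. When the same rule was applied to each list alone, so that gaps ran between the list's own peaks, air lists 1, 2 and 3 gave 4, 6 and 2 dense loci, ethylene list 1 gave 1, and ethylene lists 2 and 3 gave 0. The air lists pooled gave 119 and the ethylene lists pooled 10, from 39926 and 16598 peaks.

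Regions rather than loci show how often the same place was found again. Of the 2522 regions in dense loci, 993 (39.4%) were in 2 or more lists, against 34.1% of all 36717 regions. In 4 or more lists were 131 (5.19%, all regions 4.53%), and in all 6 lists 4 (0.159%, all regions 0.163%). Recurrence in dense loci was thus near that of m1A regions at large. The 4 regions in all 6 lists were named after their values were seen. They were Peaxi162Scf00075 1782108 to 1782809 (702 bp), Peaxi162Scf00550 496178 to 497047 (870 bp), Peaxi162Scf01108 213720 to 214269 (550 bp) and Peaxi162Scf01112 266753 to 269403, the widest region of any dense locus at 2651 bp. None of the 4 overlapped an m6A-titled region.

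Where regions recurred, their edges often coincided to the base. The 972 recurrent regions in dense loci with 1 peak per list were compared. In 577 (59.4%) at least 2 lists gave the same start and in 534 (54.9%) the same end. Both edges were shared by at least 2 lists in 285 (29.3%), and every list gave the same bounds in 182 (18.7%). For the 11298 such regions elsewhere the shares were 50.9% for the start, 51.4% for the end, 23.4% for both edges and 14.5% for identical bounds in every list. Exact edges were thus a general trait of these lists, also seen outside dense loci.

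By treatment, most regions of dense loci were in air lists alone. This share was lower than elsewhere, and the share in lists of both treatments was higher. The air lists held 39926 of the 56524 m1A peaks. Air lists alone held 1409 (55.9%), ethylene lists alone 463 (18.4%) and both treatments 650 (25.8%). Elsewhere the shares were 61.7, 17.1 and 21.2%. The limit of all 3 air lists and no ethylene list went the other way, with 45 regions (1.78%) against 1.33% of all regions. With the looser limit of 2 or more air lists and no ethylene list there were 300 (11.9%, all regions 11.6%), and with 2 or more ethylene lists and no air list 43 (1.70%, all regions 1.04%). In all 3 ethylene lists and no air list were 2 regions (0.0793%, all regions 0.0354%). These were Peaxi162Scf00079 1649174 to 1649567 (394 bp), in a locus of 8 regions, and Peaxi162Scf00207 149715 to 149798 (84 bp), in a locus of 10, and both were singled out after their values were seen. The positions of these peaks chose the loci, so nothing was tested.

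The largest locus by number of regions was Peaxi162Scf00452 127952 to 143811, with 18 regions over 15860 bp. It held 8, 6 and 5 regions of air lists 1, 2 and 3 and 4, 2 and 5 of ethylene lists 1, 2 and 3. Of its 18 regions 11 were in 1 list. Its most recurrent region, 133458 to 133796, was in 5 lists with scores of 103 to 3100. By treatment 9 of its regions were of air alone, 5 of ethylene alone and 4 of both. Most of the chain was thus made of regions of single lists, and its most recurrent region was of both treatments.

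The longest locus, Peaxi162Scf00789 209526 to 226300, spanned 16775 bp with 17 regions. Air lists 1, 2 and 3 held 10, 5 and 3 of these regions, ethylene list 1 held 3, and ethylene lists 2 and 3 held 0. Of its regions 14 were of air alone and none was in over 2 lists. Peaxi162Scf00045 2577144 to 2587535 differed from it, with 16 regions in 10392 bp shared evenly between treatments. There 11 regions held an air peak and 11 an ethylene peak, with 6, 6 and 4 regions of the air lists and 4, 0 and 8 of the ethylene lists. Its region 2578282 to 2578409 was in 5 lists with scores of 332 to 3100.

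The 4 loci of 15 regions covered the range between these patterns. Peaxi162Scf00029 2552254 to 2565917 and Peaxi162Scf00129 535804 to 549063 each had 14 regions with an air peak, and 5 and 4 with an ethylene peak. On Peaxi162Scf00129, 11 of the 15 regions were in air list 2, the most of any list in any dense locus. The remaining pair lay on Peaxi162Scf00016. There, the locus at 272919 to 285385 had 11 regions with an air and 10 with an ethylene peak, 8 of them in ethylene list 1, and its region 283084 to 283512 was in 5 lists with scores of 2043 to 3100. The locus at 340320 to 351675 had the largest share of regions in 1 list among the 10 largest, 13 of 15, and none in over 2.

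Of the 5 loci with 14 regions, the 3 longest completed the 10 largest. These were Peaxi162Scf00033 1384622 to 1397291, Peaxi162Scf00089 592940 to 605308 and Peaxi162Scf00683 114081 to 126224. They had 12, 13 and 13 regions with an air peak and 5, 6 and 6 with an ethylene peak. Peaxi162Scf00683 held a region at 123685 to 124007 in 5 lists with scores of 2419 to 3100. Packing was tightest in a smaller locus, Peaxi162Scf00560 529020 to 533054, with 9 regions in 4035 bp (2.23 per kb). All 9 held an air peak and 2 an ethylene peak.

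**Figure D3:**
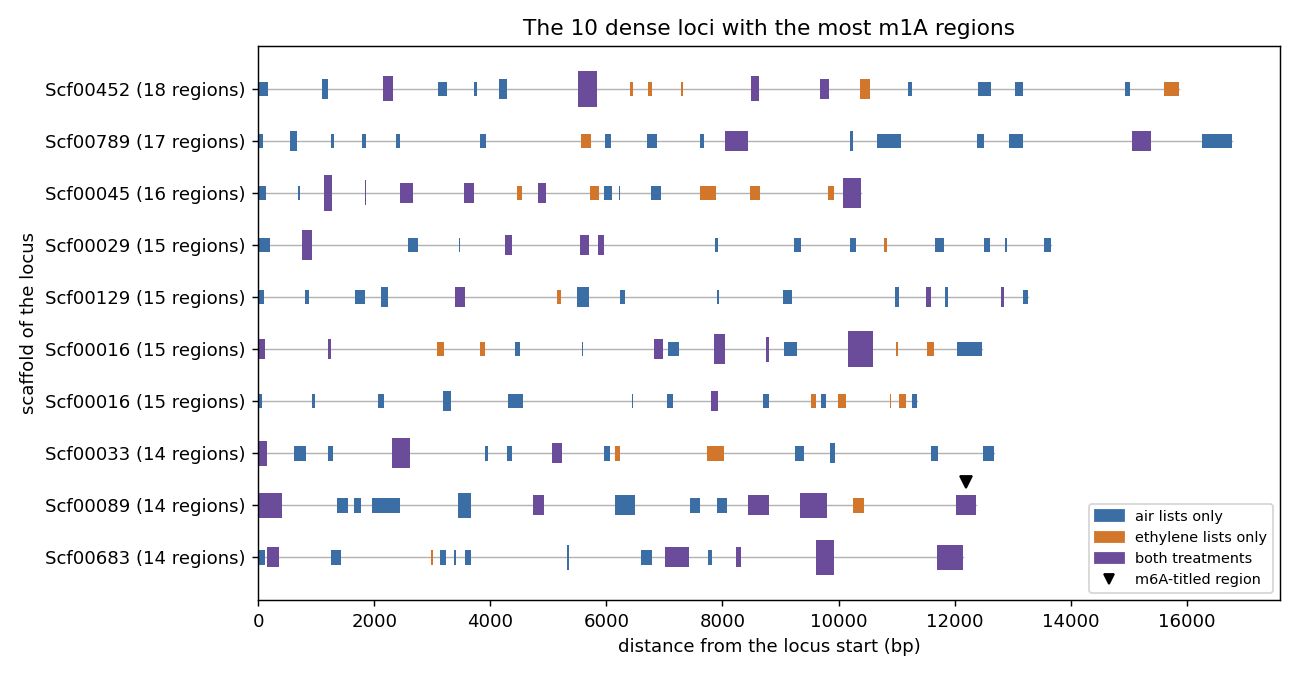
Each row is 1 of the 10 dense loci with the most m1A regions, drawn to scale as distance from the locus start in bp. Boxes are merged regions, taller where more lists hold them (1 to 5 lists here), blue for air lists only, orange for ethylene lists only and purple for both, and the triangle is the single m6A-titled region in these loci. The loci differ in how many regions both treatments share, from 6 in Scf00045 and in the upper Scf00016 locus to 1 in the lower Scf00016 locus, and Scf00789 has 14 of its 17 regions in air lists only.

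The balance between treatments was ranked after scaling each list to its own length. For each locus the peaks of a list were divided by the list total and averaged over the 3 lists of a treatment, and the ethylene mean was expressed as a percent of the sum of both means. The median of this ethylene share over the 266 loci was 45.5%, with extremes of 0 and 88.8%. It was over 50% in 110 loci. Ethylene list 2 weighed heavily, since 1 of its 1013 peaks counts as much as many peaks of a long list. Of the 57 loci in which it had a peak, 56 lay over 50%. Without ethylene list 2 the median was 51.8%, and 142 loci lay over 50%.

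The 5 loci with the highest ethylene share all had peaks of ethylene list 2. Peaxi162Scf00089 1739899 to 1747020 (88.8%) held 1, 4 and 3 regions of ethylene lists 1, 2 and 3 and 2, 5 and 1 of the air lists. Peaxi162Scf00038 1523587 to 1529543 (87.8%) held 1, 4 and 3 regions of the ethylene lists, and Peaxi162Scf00132 12810 to 19461 (88.6%) held 0, 2 and 4. Without ethylene list 2 their shares were 57.5, 54.9 and 70.03%. Peaxi162Scf00400 286708 to 292195 and Peaxi162Scf00079 1646912 to 1653910 kept the higher shares without it, 72.5 and 81.6%. The first of these held 3, 2 and 3 regions of the ethylene lists against 1, 4 and 1 of the air lists, and the second 4, 1 and 3 against 3, 2 and 0.

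At the other end stood 4 loci with no ethylene peak. Peaxi162Scf00332 72624 to 79384 held 4, 6 and 1 regions of air lists 1, 2 and 3, and Peaxi162Scf00530 855148 to 860843 held 3, 3 and 3. Peaxi162Scf01205 210938 to 216515 held 5, 1 and 6, and Peaxi162Scf00471 31184 to 36309 held 6, 3 and 2. Each of the 4 thus drew on all 3 air lists. Few of their regions were common to all 3, however: 72624 to 72852 on Peaxi162Scf00332 and 213210 to 213414 on Peaxi162Scf01205 were. The next lowest share, 9.39%, was that of Peaxi162Scf00159 45764 to 53636, with 5, 5 and 4 regions of the air lists and 1 of ethylene list 3.

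The share of a list's peaks in dense loci that it had no part in choosing was measured by rebuilding the loci from the other 5 lists. No expected share was computed, so whether dense loci attract peaks is not answered. In air lists 1, 2 and 3, 2.78, 2.34 and 5.0% of the peaks fell in dense loci of the other lists. In ethylene lists 1, 2 and 3, 4.97, 6.32 and 4.62% did. The mean was 3.37 ± 1.43% for air (SD, n = 3) and 5.30 ± 0.898% for ethylene (SD, n = 3). Air list 3 lay among the ethylene lists, and the difference of 1.93 percentage points did not pass the test (exact two-sided permutation p = 0.3, smallest possible 0.1). Each list was set against its own set of loci, so the test cannot separate treatment from the number of loci.

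The held-out shares moved with the number of loci that remained. Leaving out the long air lists 1 and 2 left 126 and 109 loci. Leaving out air list 3 or ethylene lists 1, 2 or 3 left 187, 202, 259 and 178. Per 100 such loci, air lists 1, 2 and 3 had 2.21, 2.15 and 2.67% of their peaks inside, and ethylene lists 1, 2 and 3 had 2.46, 2.44 and 2.59%. On this scale the treatments overlapped as well. With each list included in the choice of loci, the shares were higher and closer together, from 6.56% in air list 2 to 8.55% in air list 3.

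**Figure D4:**
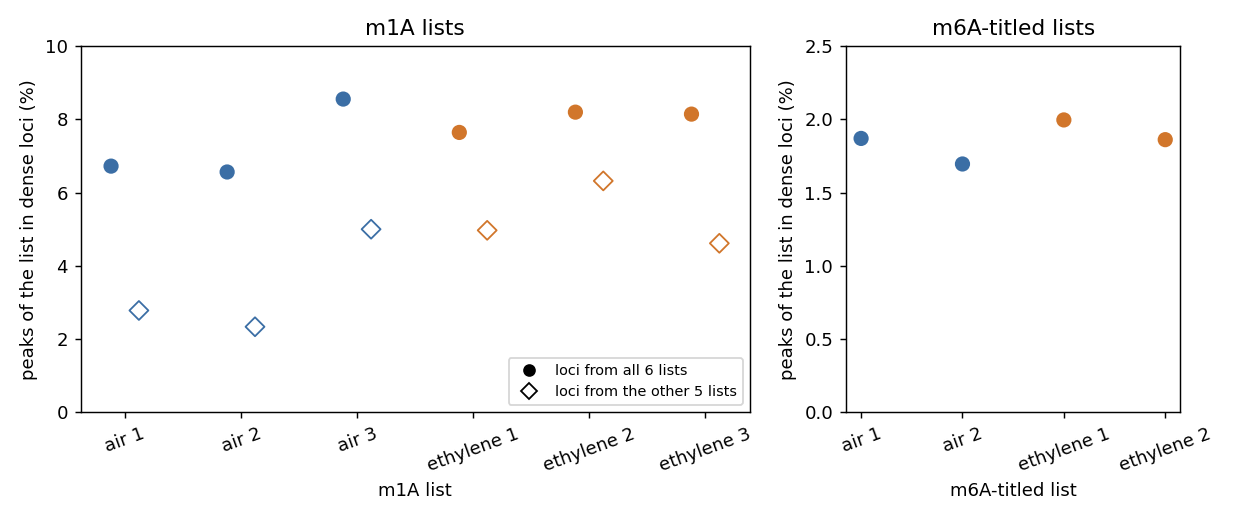
The left panel gives the percent of each m1A list's peaks that lie in dense loci, with loci from all 6 lists (filled) or from the other 5 lists (open diamonds), and the right panel the same percent for the 4 m6A-titled lists, air in blue and ethylene in orange. Open diamonds run from 2.34 to 6.32% and the m6A-titled lists from 1.69 to 1.995%, with the treatments overlapping in each set of m1A points.

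The m6A-titled lists took no part in the choice of loci. Their protocol names the same anti-m1A antibody, so they may not be independent of the m1A lists. Of the 266 dense loci, 51 (19.2%) overlapped an m6A-titled region, against 8.22% of all 17059 loci and 12.2% of the loci of 4 to 7 regions. Dense loci are longer than the others, so this share is not a density. In air lists 1 and 2, 30 and 27 m6A-titled peaks lay in dense loci, or 1.87 and 1.69% of the list. In ethylene lists 1 and 2 the numbers were 34 and 27, or 1.995 and 1.86%. The means were 1.78 ± 0.123% (SD, n = 2) and 1.93 ± 0.0951% (SD, n = 2), ethylene list 2 lay below air list 1, and the difference of 0.146 points did not pass the test (exact two-sided permutation p = 0.667, smallest possible 0.333).

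Per length, m6A-titled peaks were somewhat sparser in dense loci than in loci of 4 to 7 regions. The dense loci summed to 2080 kb with 532 end regions, and the comparison loci to 8995 kb with 4728, so the comparison loci had more ends per length. Many m6A-titled regions lay on end regions (below), and the part of this in the density was not tested. Per 100 kb, air lists 1 and 2 had 1.44 and 1.30 peaks in dense loci against 1.59 and 1.67 in the comparison loci. Ethylene lists 1 and 2 had 1.63 and 1.30 against 2.12 and 1.4674. The density was lower in dense loci in 4 of 4 lists, with a mean log2 ratio of -0.26 ± 0.12 (SD, n = 4), which is a ratio of 0.833. The exact two-sided sign-flip permutation p was 0.13 (2 of 16 sign patterns), the smallest possible with 4 lists. The sign turned when only m1A peaks at or above the pooled median score were used, with a mean log2 ratio of 1.12 from 21 dense loci. It was -0.11 with m6A-titled peaks that lie whole within the locus and -0.11 with m6A-titled peaks at or above their pooled median score (exact sign-flip permutation p = 0.5 for each). Without m1A ethylene list 1 it was -0.05 (exact sign-flip permutation p = 0.5) and without m1A air list 2 -0.89.

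Inside the 51 loci there were 60 of the 3280 m6A-titled regions. In 45 of these loci there was 1, in 4 there were 2, and 1 locus each had 3 and 4. Of the 60 regions 31 were in 1 m6A-titled list and 12 in all 4, where 17.01% of all m6A-titled regions were. Their median width was 306 bp, against 266 bp for all. A region of m1A lay under 57 of the 60 (95.0%), and under 290 of the 316 m6A-titled regions in loci of 4 to 7 regions (91.8%). Seen from the m1A side, 66 of the 2522 regions (2.62%) overlapped an m6A-titled region, against 4.21% of all m1A regions. Of the 60 m6A-titled regions 41 lay whole within their locus. The others crossed a locus edge and so overlapped the m1A region there by construction, which fixes part of the 95.0%. The same holds for any such region in loci of 4 to 7 regions. Few of the m1A regions of dense loci carried an m6A-titled region.

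The strand column of the m6A-titled lists showed a single strand in each dense locus that held several. Of the 60 regions 29 were on the plus and 31 on the minus strand. All 6 dense loci with 2 or more m6A-titled regions had them on 1 strand, as did 24 of the 25 such loci of 4 to 7 regions. The m1A lists have no strand, so the strand of the m1A regions is not known.

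Along the locus, m6A-titled regions lay mainly at the ends. Loci were oriented by the strand of the m6A-titled region. Some m6A-titled regions reached past the locus, and a midpoint outside it was counted with the nearest 25%. Counted so, 37 of the 60 midpoints (61.7%) fell in the first 25% of the locus or before it, at the 5′ side. The stretches from 25 to 50% and from 50 to 75% held 4 and 5, and the last 25%, with midpoints past it, held 14 (23.3%). On the plus strand these stretches held, in order, 19, 2, 0 and 8 and on the minus strand 18, 2, 5 and 6. In loci of 4 to 7 regions 52.8% were in the first and 20.6% in the last 25%. By list, the 3′ side of the locus midpoint held 8 of 30 peaks in air list 1 (26.7%), 11 of 27 in air list 2 (40.7%), 11 of 34 in ethylene list 1 (32.4%) and 6 of 27 in ethylene list 2 (22.2%). All 4 lists thus had most of their peaks on the 5′ side.

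Many of these regions lay on the end regions of the chain. Of the 57 m6A-titled regions on an m1A region, 28 (49.1%) lay on the region at the 5′ end of the locus, 10 (17.5%) on that at the 3′ end and 19 on an inner region, while end regions were 21.1% of all regions. In loci of 4 to 7 regions the shares were close to these, 50.3% at the 5′ end, 18.97% at the 3′ end and 30.7% on inner regions. An m6A-titled region was counted in a locus when it overlapped it by 1 bp, and 41 of the 60 lay whole within their locus. A locus begins and ends with an m1A region by construction, and end regions were wider than inner ones, and the part of both in these counts was not tested. The lean to the 5′ rather than the 3′ end rests on the strand column as deposited, and an inverted column would turn it round.

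**Figure D5:**
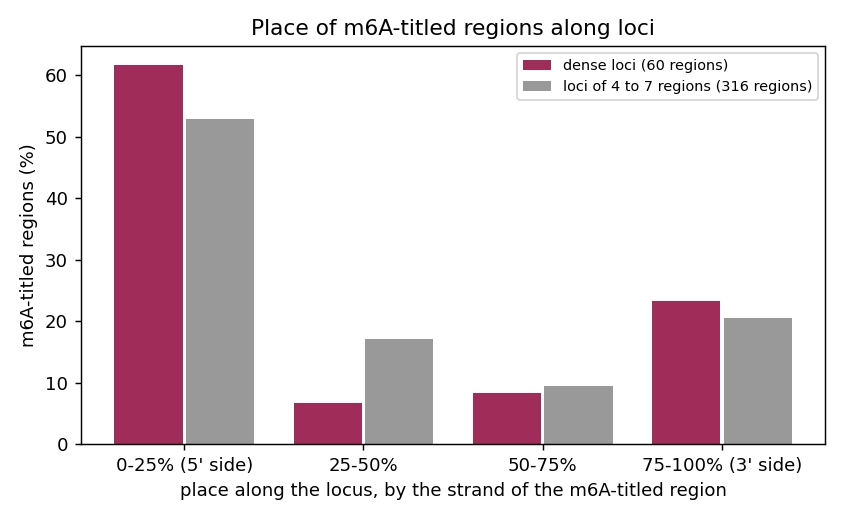
Bars give the percent of m6A-titled regions whose midpoint lies in each 25% of the locus, from the 5′ to the 3′ end by the strand of the m6A-titled region, for dense loci (60 regions) and loci of 4 to 7 regions (316 regions). Midpoints outside the locus are counted with the nearest 25%. The first 25% holds 61.7 and 52.8% and the last 23.3 and 20.6%.

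None of the 5 loci with the most m6A-titled regions was among the 10 with the most m1A regions. These 5 loci held 8 to 13 m1A regions, against quartiles of 8 and 10 over all dense loci. Peaxi162Scf00652 153153 to 159729, with 8 m1A regions, held 4 m6A-titled regions on the minus strand. Those at 155170 to 155253, 158879 to 158974 and 159570 to 159729 were in all 4 lists, and that at 158228 to 158304 was in 2. Its m1A regions were of air for the most part, with 7, 5 and 2 in the air lists and 2, 0 and 1 in the ethylene lists. Its first region, 153153 to 153517, was in 5 m1A lists with scores of 2068 to 3148. That region overlapped no m6A-titled region and lay at the opposite end from 3 of the 4 m6A-titled regions.

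Peaxi162Scf00601 80689 to 87805, with 13 m1A regions, held 3 m6A-titled regions on the plus strand, at 81577 to 81966 in 1 list and at 86213 to 86642 and 87408 to 87805 in 3 lists each. Of the 4 loci with 2 m6A-titled regions the 3 longest are named. On Peaxi162Scf00069 (1864633 to 1873018, minus) and Peaxi162Scf00879 (171623 to 178731, plus), 1 m6A-titled region near an end of the locus was in all 4 lists, at 1871749 to 1873050 and at 178527 to 178861. The latter lay at the 3′ end by its strand and the former at the 5′ end. On Peaxi162Scf00332 (72624 to 79384, minus), the longest of the 4 loci without ethylene m1A peaks, the m6A-titled regions at 74516 to 74651 and 77877 to 77947 were in 4 and 3 lists, so m6A-titled peaks of both treatments were present there. Of the 10 loci with the most m1A regions, 1 held an m6A-titled region, namely Peaxi162Scf00089, on the minus strand and in 1 list. Over all 266 dense loci the share with an m6A-titled region was 19.2%, so 1 of 10 shows no clear departure.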

How the data were processed

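Immunoprecipitated RNA of petunia corollas was represented by 10 deposited peak lists, 1 per library. The authors' deposited unit is a score per peak, whose scale is not given in the sources used here, so shares and ranges of scores describe peaks only, and a minimum score pooled over lists, used as an alternative, assumes a common scale that was not established. The submitters' processing notes name MACS 1.4.2, STAR 2.5.1b, cutadapt 1.9.3 and CASAVA 1.4 without their roles, and a human and a mouse genome build, while scaffold names carry the prefix Peaxi162 of the Petunia axillaris assembly. Coordinates are 1-based on those scaffolds. The m6A-titled lists have a strand column and were merged within strand. An input library named in the protocol was not analysed here.

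Merging, chaining and exact permutation tests over libraries were done in Python 3.11.15 with pandas 2.3.3, and tested on simulated data with planted loci. Named loci follow a rule: the 10 with the most regions, the longest, the most closely packed, the 5 with the most m6A-titled regions, and the 5 with the highest and the 5 with the lowest ethylene share, with ties resolved by length. The loci, this rule and the tests were chosen with earlier results of these data known. Loci of 4 to 7 regions served as comparison. Alternatives were gaps of 1000 and 5000 bp, 6 or 12 regions, merging at 50 bp, score minimums, each list left out, and a replicate block.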

Additional observations from a re-analysis of the deposited data

How the results depend on the processing

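The number of dense loci depended on every part of the rule. It was 44 and 792 with chaining gaps of 1000 and 5000 bp, 857 and 39 with minimums of 6 and 12 regions, 332 with merging at 50 bp and 21 with only m1A peaks at or above the pooled median score of 3100. Without each m1A list in turn it was 109 to 259, with 126 without air list 1 and 109 without air list 2. Chosen after the data were seen, the air lists pooled gave 119 and the ethylene lists pooled 10, and air lists 1, 2 and 3 and ethylene lists 1, 2 and 3 alone gave 4, 6, 2, 1, 0 and 0.

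The held-out m1A difference of 1.93 points stayed positive, at 0.178 (m1A peaks at or above the median score) to 5.33 (gap of 5000 bp). Without each m1A list it was 0.807 (without air list 2) to 2.41. The m6A-titled difference of 0.146 points turned to -0.0598 with a gap of 1000 bp, -0.0391 with 6 or more regions and -0.0560 with 12 or more. Without each m1A list it was -0.0550 (without air list 2) to 0.144, also negative without ethylene list 3 (-0.0546), and without each m6A-titled list 0.0589 to 0.233. The log2 density ratio of -0.26 turned to 1.12 with m1A peaks at or above the median score, was -0.885 (without air list 2) to -0.0535 (without ethylene list 1) without each m1A list, and was -0.11 both with m6A-titled peaks whole within the locus and with those at or above their median score (exact sign-flip permutation p = 0.5 for each). It stayed negative under the other alternatives. The causes were not tested.

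Whether the same replicate numbers mark paired libraries was not settled by the check made. Over the 266 loci, deviations from the treatment mean correlated at 0.0865, -0.0031 and -0.0546 between libraries 1, 2 and 3 of both treatments. Between unlike numbers the correlations ran from -0.0939 to 0.0769. Peaks per locus and list were few, and ethylene list 2 weighed heavily after scaling, so the check cannot decide. With the replicate block the differences were 1.93 points for m1A (exact sign-flip permutation p = 0.5, smallest possible 0.25) and 0.146 points for m6A-titled peaks (p = 0.5, the smallest possible by exact permutation). Depth is unknown, so the share of a longer list that reflects deeper sequencing cannot be told.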
